A study of Mus musculus with 3 samples.

Results

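Nkx2.2 ChIP-sequencing regions were described at mouse genes for fatty acid, phospholipid and sphingolipid metabolism, in progenitor cells of oligodendrocytes (OPCs) and in the oligodendrocytes (OLs) made from them. Members are the genes in the gene list of the deposited region table whose symbol belongs to the families Acsl, Acot, Elovl, Fads, Scd, Lpin, Agpat, Pnpla, Osbpl, Lass, Sgms, Smpd, Degs or Abca with a number, together with Ugcg, Fasn, Acaca, Acly, Gal3st1 and Fa2h. This gave 73 of the 14473 genes named in the table, and 218 of its 37271 regions. Of the 218, 56 are also assigned to a gene outside the rule, which is not repeated for each below. The rule reads names and no signal, but a gene enters only if a region was assigned to it, so the members say nothing of how often lipid genes are bound at all. RefSeq lists 97 protein-coding genes of these names (the Lass genes are now called Cers and Agpat6 is now Gpat4), and 24 of them had no region in the table, among them Acsl5, Agpat2, Cers4, Degs2, Elovl3, Fads3, Sgms2 and Smpd2.

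Cells came from dissociated cortex of C57BL/6 mice at postnatal day 7 and were selected with an antibody to PDGFRA. All were grown without serum in SATO medium that held 10 ng/mL of PDGF-AA, 10 ng/mL of CNTF and 1 ng/mL of NT-3. The OPC group kept these factors for 2 more days and was dividing when harvested, while for the OL group PDGF-AA was withdrawn and the thyroid hormone T3 added at 40 ng/mL for 48 h, which left the cells postmitotic. Both groups carried no transgene or deletion in the labels, both are listed with 1.5e7 cells, and both were precipitated with the same monoclonal antibody to Nkx2.2. Each group is 1 library, and the number of mice behind it is not given in the sources used here, so no difference has a replicate check, no test was run between the states, and no p-value is given. RNA was not measured in this series, so cell identity could not be checked against marker transcripts and nothing here speaks of expression. An input library belongs to the series and was not analysed here.

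Oligodendrocytes build myelin, a membrane with more lipid than most and rich in very-long-chain galactosylceramide, its sulfated form sulfatide, plasmalogens and cholesterol. Its fatty acids are made from citrate by Acly, Acaca and Fasn, lengthened by Elovl enzymes, desaturated by Scd and Fads enzymes, and joined to a sphingoid base by ceramide synthases or to glycerol phosphate by acyltransferases. Nkx2.2 is a homeodomain factor of the lineage that acts as a repressor through Groucho corepressors, and it is required for timely oligodendrocyte differentiation.

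The table gives each region an average signal in each library, in units left by the authors, and a mark for whether an interval was called there. The difference between the states is stated as log2((OL + 1) / (OPC + 1)) of the average signal, called the log2 ratio below. A value of 1 means that signal + 1 was 2 times as high in OL, and -1 the reverse. The scaling between the libraries is unknown: over all regions the median log2 ratio was 0.74, and at the regions called in both it was 0.24, so a ratio near these values is that of the table as a whole. Sequencing depth is unknown as well.

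Before the values, the promoters that carried the most Nkx2.2 signal are shown, since they are where a region and a fixed gene start coincide. They are the 6 members with the highest signal among those whose region had its middle within 300 bp of the deposited start and whose gene has a single promoter in the RefSeq table. Each run is the 250 bases before the RefSeq start on build GRCm38.p6, on the strand of the gene. Capitals mark AAGTG or its reverse complement CACTT, the core of the NK2 homeodomain motif, searched on both strands. The deposited regions are on mm9 and were matched to these promoters by gene name alone, so whether the called summit covers the capitals was not tested.
Acly (chr11:100528001-100528250, minus strand): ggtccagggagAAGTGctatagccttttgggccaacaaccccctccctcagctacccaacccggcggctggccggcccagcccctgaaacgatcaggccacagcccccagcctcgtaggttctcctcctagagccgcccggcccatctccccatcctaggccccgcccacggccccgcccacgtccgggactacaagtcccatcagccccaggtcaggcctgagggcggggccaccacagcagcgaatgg
Abca2 (chr2:25428349-25428598, plus strand): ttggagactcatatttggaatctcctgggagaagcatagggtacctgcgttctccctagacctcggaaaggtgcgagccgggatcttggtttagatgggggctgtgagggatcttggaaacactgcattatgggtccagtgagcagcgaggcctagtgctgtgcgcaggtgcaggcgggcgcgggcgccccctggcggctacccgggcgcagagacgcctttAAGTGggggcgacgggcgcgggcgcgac
Smpd1 (chr7:105554110-105554359, plus strand): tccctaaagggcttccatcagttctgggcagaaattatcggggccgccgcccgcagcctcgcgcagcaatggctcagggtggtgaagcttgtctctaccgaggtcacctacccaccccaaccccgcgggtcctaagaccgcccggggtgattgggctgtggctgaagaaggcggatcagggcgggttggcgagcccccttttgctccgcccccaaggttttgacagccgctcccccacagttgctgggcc
Pnpla8 (chr12:44268904-44269153, plus strand): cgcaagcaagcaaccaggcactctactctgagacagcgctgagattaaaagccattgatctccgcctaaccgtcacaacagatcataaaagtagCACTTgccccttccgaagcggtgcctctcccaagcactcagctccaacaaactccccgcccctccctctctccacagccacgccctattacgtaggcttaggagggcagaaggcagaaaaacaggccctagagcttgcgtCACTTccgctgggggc
Agpat4 (chr17:12119034-12119283, plus strand): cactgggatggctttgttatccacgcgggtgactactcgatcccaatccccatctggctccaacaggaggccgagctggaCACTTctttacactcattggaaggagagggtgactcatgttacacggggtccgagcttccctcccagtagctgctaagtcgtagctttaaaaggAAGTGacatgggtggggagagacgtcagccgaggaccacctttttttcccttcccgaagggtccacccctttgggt
Acsl3 (chr1:78657575-78657824, plus strand): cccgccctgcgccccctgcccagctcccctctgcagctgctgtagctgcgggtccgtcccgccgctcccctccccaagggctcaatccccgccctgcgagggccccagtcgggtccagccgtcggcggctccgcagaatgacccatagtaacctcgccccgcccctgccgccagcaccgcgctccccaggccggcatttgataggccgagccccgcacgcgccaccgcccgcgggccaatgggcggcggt
Both the strongest OPC promoter, Abca2, and the strongest printed OL promoter, Acly, held 1 copy, 28 to 24 bases and 239 to 235 bases before the start. Pnpla8 and Agpat4 held 2 copies each, while Smpd1 and Acsl3 held none in this window. The copy in Abca2 also fits the longer form TNAAGTG. Of the 36 members with a region at their start, 26 had 1 promoter in the table, 3 had more than 1 and 7 had none. AAGTG on either strand was present in 12 of these 26 (46.2%) and in 40.7% of all 32851 RefSeq promoters of the same length, and TNAAGTG in 2 of 26 (7.69%) and in 10.1%. Every match of the longer form is also a match of the shorter one, so these shares overlap. A match is a description of the letters and not a binding site.

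Most lipid regions were called in OL. Of the 218 regions, 196 (89.9%, exact Clopper-Pearson 95% interval 85.1 to 93.6%) were called in OL, against 87.0% of the 26342 regions with an assigned gene. Calls in OPC were present at 67 (30.7%, 24.7 to 37.3%), against 37.7%. By class, 151 regions (69.3%) were called in OL only, against 62.3%, 45 (20.6%) in both, against 24.8%, and 22 (10.1%) in OPC only, against 13.0%. The regions called in OPC only had a median log2 ratio of -0.57, where all such regions with a gene had -0.84, and those called in OL only had 1.04, where all such regions with a gene had 1.08. Call and signal could differ: a Lass2 region called in OPC only had 4.33 in OPC and 4.88 in OL. Regions of a gene share a locus, so these intervals cover counting error over regions and nothing more. Calls counted below for single genes are to be read beside these shares.

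At the level of genes, 72 of 73 members had an OL call, all but Elovl1, and 39 (53.4%) had an OPC call. Of the 14473 genes, 94.8% had an OL call and 57.3% an OPC call. Members had a median of 2 regions, as did all genes, and 20 of 73 had 4 or more, which 16.5% of all genes reached. Acot7 had the most, 13.

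Signal leaned to OL to about the extent of the whole table. The median log2 ratio of the lipid regions was 0.82 (quartiles 0.30 and 1.31), and that of the regions with a gene was 0.74 (0.17 and 1.27). More signal in OL than in OPC was present at 185 regions (84.9%), against 79.6%. A ratio of 1 or more was present at 85 regions (39.0%, 32.5 to 45.8%), against 36.5% of regions with a gene, which is near the background. A ratio of -1 or less was present at 4 (1.83%, 0.50 to 4.63%), against 5.65%. The signal was listed at 0 in OPC at 14 regions, against 5.55% of regions with a gene, and in OL at 2, against 0.642%. The ratio of these 16 regions is set by the pseudocount: 14 of them count among the 85 and 2 among the 4, and without them 71 regions reached 1 and 2 lay at or below -1, with a median of 0.74. The 4 regions at -1 or less lie at Lpin1, with 2 of them, Osbpl6 and Sgms1. When ratios were centred on the median of all regions, the counts became 23 and 23, and centred on the shared regions 60 and 6, so the lean itself depends on how the libraries are scaled. Taken by gene at the region with the highest signal, the median was 0.79 for members and 0.73 for all genes, where 31 genes reached 1 and 2, Lpin1 and Osbpl6, lay at -1 or below, against 34.7% and 4.19% of all genes.

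**Figure D1:**
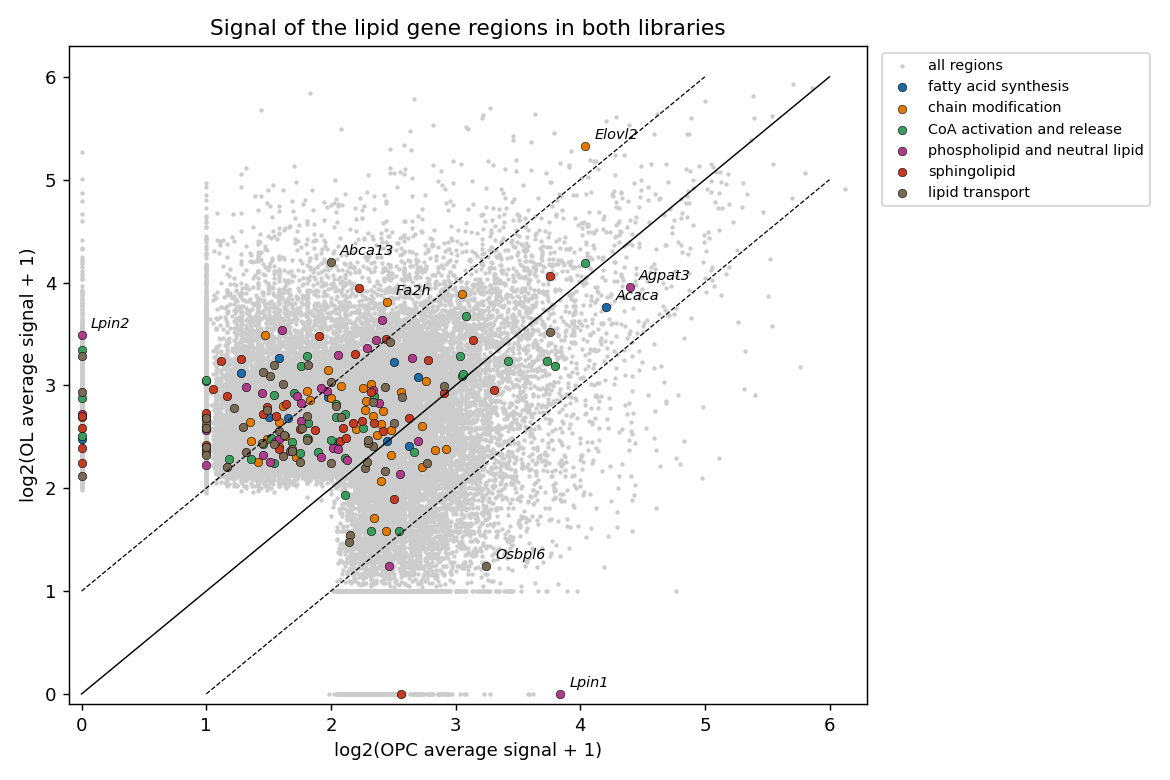
Average signal of each region in OPC (horizontal) and OL (vertical), both as log2(signal + 1). Grey points are all 37271 regions and coloured points the 218 lipid regions by role. The solid line is equal signal and the dashed lines a log2 ratio of 1 and -1. Elovl2 lies highest, at 39.1 in OL, and the Lpin1 region listed at 0 in OL lies on the bottom edge with 1 of Sgms1.

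Of regions with a gene, 36.5% had a ratio of 1 or more, and this share lay within the exact 95% interval of every role. Sphingolipid genes had 21 of 40 regions at 1 or more and phospholipid and neutral lipid genes 17 of 36, with medians of 1.06 and 0.94. Their shares were 52.5% (36.1 to 68.5%) and 47.2% (30.4 to 64.5%). Of the 40 sphingolipid regions, 4 were listed at 0 in OPC and have ratios set by the pseudocount. Fatty acid synthesis genes had 5 of 12, at a median of 0.82, and lipid transport genes 21 of 52, at 0.89. Chain-modifying enzymes had 11 of 40, at 0.68, and the genes of CoA activation and release 10 of 38, at 0.62. The quartiles of the sphingolipid regions, 0.38 and 1.70, overlapped those of CoA activation and release, 0.16 and 1.07, and no test of these differences was made.

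**Figure D2:**
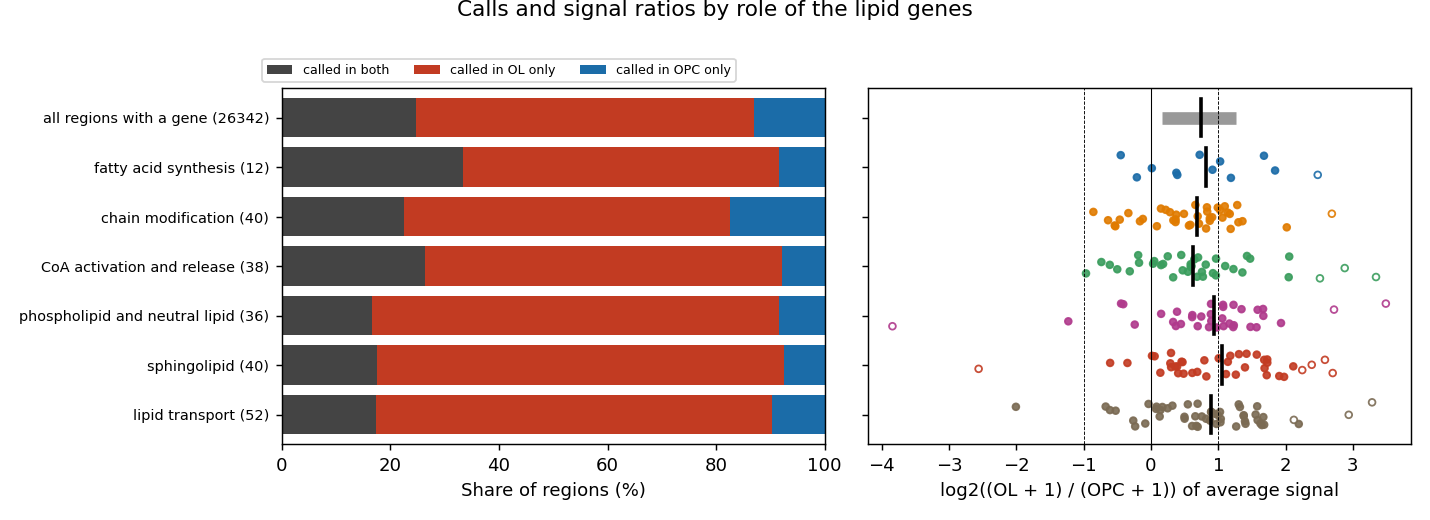
Left, share of regions called in both libraries, in OL only or in OPC only, for all regions with a gene and for each role, with the number of regions in parentheses. Right, log2 ratio of each region by role in the same order. Hollow points are regions listed at 0 in a library. Black bars are medians and the grey bar spans the quartiles 0.17 and 1.27 of all regions with a gene. Sphingolipid regions have the highest median, 1.06, and CoA activation and release the lowest, 0.62.

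The genes of fatty acid synthesis, Acaca, Fasn and Acly, each had OPC and OL calls, as 57.3% and 94.8% of all genes had. The highest region lay inside the gene for Acaca, upstream for Fasn and at the promoter for Acly. Acaca, acetyl-CoA carboxylase, which makes malonyl-CoA, had the second strongest OPC region of all members, at chr11:84137422-84138362 and 128952 bp into the gene, with 17.5 in OPC and 12.6 in OL. It is called in both libraries. The other regions of Acaca, 4 in all, were called in OL only, with 7.72 in OL and 1.43 in OPC at one, 8.61 and 2.00 at another, 5.41 and 2.14 at the next, and 4.57 and a value listed at 0 at the last, downstream of the gene. So the strongest region of Acaca leaned to OPC, with a log2 ratio of -0.45, while 3 of its others with signal in both libraries lay above 1. No region lay within 1 kb of its deposited start.

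Fasn, fatty acid synthase, had 4 regions, all called in OL and 2 of them in OPC. The highest lay upstream, at -9549 bp, and is also assigned to Ccdc57, with 4.67 in OPC and 8.37 in OL. The region at its start, chr11:120685675-120686736, had 3.17 and 4.47, one inside the gene 1.83 and 5.46, and one downstream 4.45 and 4.50. The start and inside regions are also assigned to Ccdc57, and the downstream one to Gps1 and Dus1l. The log2 ratios of Fasn ran from 0.01 to 1.19, and only the region inside the gene passed 1. Acly, ATP citrate lyase, which supplies cytosolic acetyl-CoA, had its highest region at the promoter (chr11:100389028-100389641), called in both, with 5.50 in OPC and 7.44 in OL. Its other regions had 2.93 and 6.41 inside the gene and 5.17 and 4.33 downstream, the latter called in OPC only. Both of these other regions are also assigned to Klhl11.

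Among the chain-modifying enzymes Elovl2 held the strongest OL signal of any member. Elovl2 elongates polyunsaturated acyl chains. Its only region, chr13:41298530-41299143, lies 16926 bp into the gene and had 15.5 in OPC against 39.1 in OL. The log2 ratio was 1.28, with calls in both. In OL this ranks 33 of all 37271 regions and in OPC 398. It was the only lipid region in the top 1% of OL signal, while 2 lay in the top 1% of OPC signal, those of Agpat3 and Acaca.

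Elovl6, which elongates palmitate to stearate, had 6 regions. The strongest lay 4070 bp into the gene and had 7.29 in OPC against 13.8 in OL. At its start the values were 3.59 and 4.96, and a region 102338 bp in was called in OPC only, with 4.09 and 2.27. Elovl5, an elongase of polyunsaturated chains, had its highest region upstream, at -6684 bp, with 3.88 and 6.21, and one at its start with 2.00 and 5.27. Elovl4, an elongase for very long chains, had 1.55 and 5.26 at 723 bp into the gene. Elovl7 had a single region downstream, with 5.44 in OL and a value listed at 0 in OPC. Elovl1, which makes the saturated very long chains of sphingolipids, was the exception: its only region lies downstream of the gene and had 6.57 in OPC and 4.21 in OL, called in OPC only.

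The 4 Scd genes, stearoyl-CoA desaturases that make monounsaturated chains, lie side by side on chromosome 19, and their 14 regions spread over 213 kb (chr19:44269681-44483116). The 4 with more OPC signal, 1 at Scd3, 2 at Scd2 and 1 at Scd1, lie among 10 with more OL signal. Of the 14, 9 were called in OL only, 2 in both and 3 in OPC only, against 62.3%, 24.8% and 13.0% of regions with a gene. The log2 ratios ran from -0.53 to 2.02. Scd2, the main brain form, had 7 of them. Upstream of its start, at -317 bp, Scd2 had 5.79 in OPC and 7.26 in OL and was called in OL only, and 720 bp inside the gene it had 5.63 and 5.10 and was called in both. Its highest region, 3042 bp inside, had 2.94 and 7.87. Scd1 had 1.78 and 10.25 at 18187 bp downstream, a log2 ratio of 2.02, but at its start the OPC library alone had a call, with 4.30 and 3.20. Scd4 had 2.56 and 6.25 at its start, and Scd3 ran from 6.13 and 4.17 upstream to 3.79 and 6.85 downstream.

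Fads1 and Fads2, which desaturate polyunsaturated chains, had no region with a signal of 6 or more in either library. Fads1 had 4.35 in OPC against 5.74 in OL at its start and 4.60 and 4.0 inside the gene. Fads2 had 4.05 and 5.50 at 588 bp, called in both, and 3.83 and 5.79 at its highest region. Fads6 had 4 regions, none at its start, with log2 ratios from -0.86 to 0.91. No region of the Fads genes passed 1 or -1. Fa2h, which hydroxylates the fatty acids of myelin galactolipids, differed from them. All of its 3 regions lie inside the gene and had more OL signal, at 13.0 in OL and 4.46 in OPC for chr8:113898853-113899597, 5.95 and 2.06 for the next and 4.29 and 2.00 for the last. The first of these had calls in both libraries and a log2 ratio of 1.36.

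The acyl-CoA synthetases activate fatty acids, and the thioesterases release them. Their strongest regions, at Acsl1 and at Acot12, had small log2 ratios, 0.15 and -0.61. A log2 ratio of 1 or more was present at 6 of 16 Acsl regions (37.5%) and 4 of 22 Acot regions (18.2%). Of regions with a gene 36.5% had one. Acsl1 had 6 regions. Its highest lies 68762 bp from the start, downstream of the gene at chr8:47624766-47625551, with 15.5 in OPC and 17.25 in OL, and a further region inside the gene had 7.46 and 11.7. At the start Acsl1 had 3.33 and 5.58, and 2 neighbouring regions inside it had 4.70 and 7.26 in OL where OPC was listed at 0 and at 1.00. Acsl3 had 1.92 and 6.48 at its start, a log2 ratio of 1.36, and OL calls alone at all of its 4 regions. Acsl6, an isoform of brain, had 1.00 and 7.31 at 19292 bp and 5.36 and 4.11 at 8338 bp. Acsl4 had weak regions downstream only, at 3.33 and 3.91 and at 2.23 and 4.46.

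The 3 Acot genes with the strongest regions leaned to OPC there. Acot12 had 12.9 in OPC and 8.10 in OL, Acot7 12.3 and 8.41, and Acot11 9.72 and 8.40, with log2 ratios of -0.61, -0.50 and -0.19, and all were called in both. They are 3 of the 9 members whose highest region had more OPC signal. Acot7, the long-chain thioesterase most abundant in brain, spread widely: 13 regions with log2 ratios from -0.50 to one where OPC was listed at 0 and OL had 9.15 (chr4:151588965-151589404). Of its regions 8 were called in OL only, 4 in both and 1 in OPC only, and that at its start had 1.75 and 4.38. The cluster members Acot1, Acot4 and Acot6 each had 1 region off the start, with 1.88 and 4.61, 3.13 and 5.44, and 2.73 and 4.09, and Acot8 had 3.77 and 5.0 at its start.

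**Figure D3:**
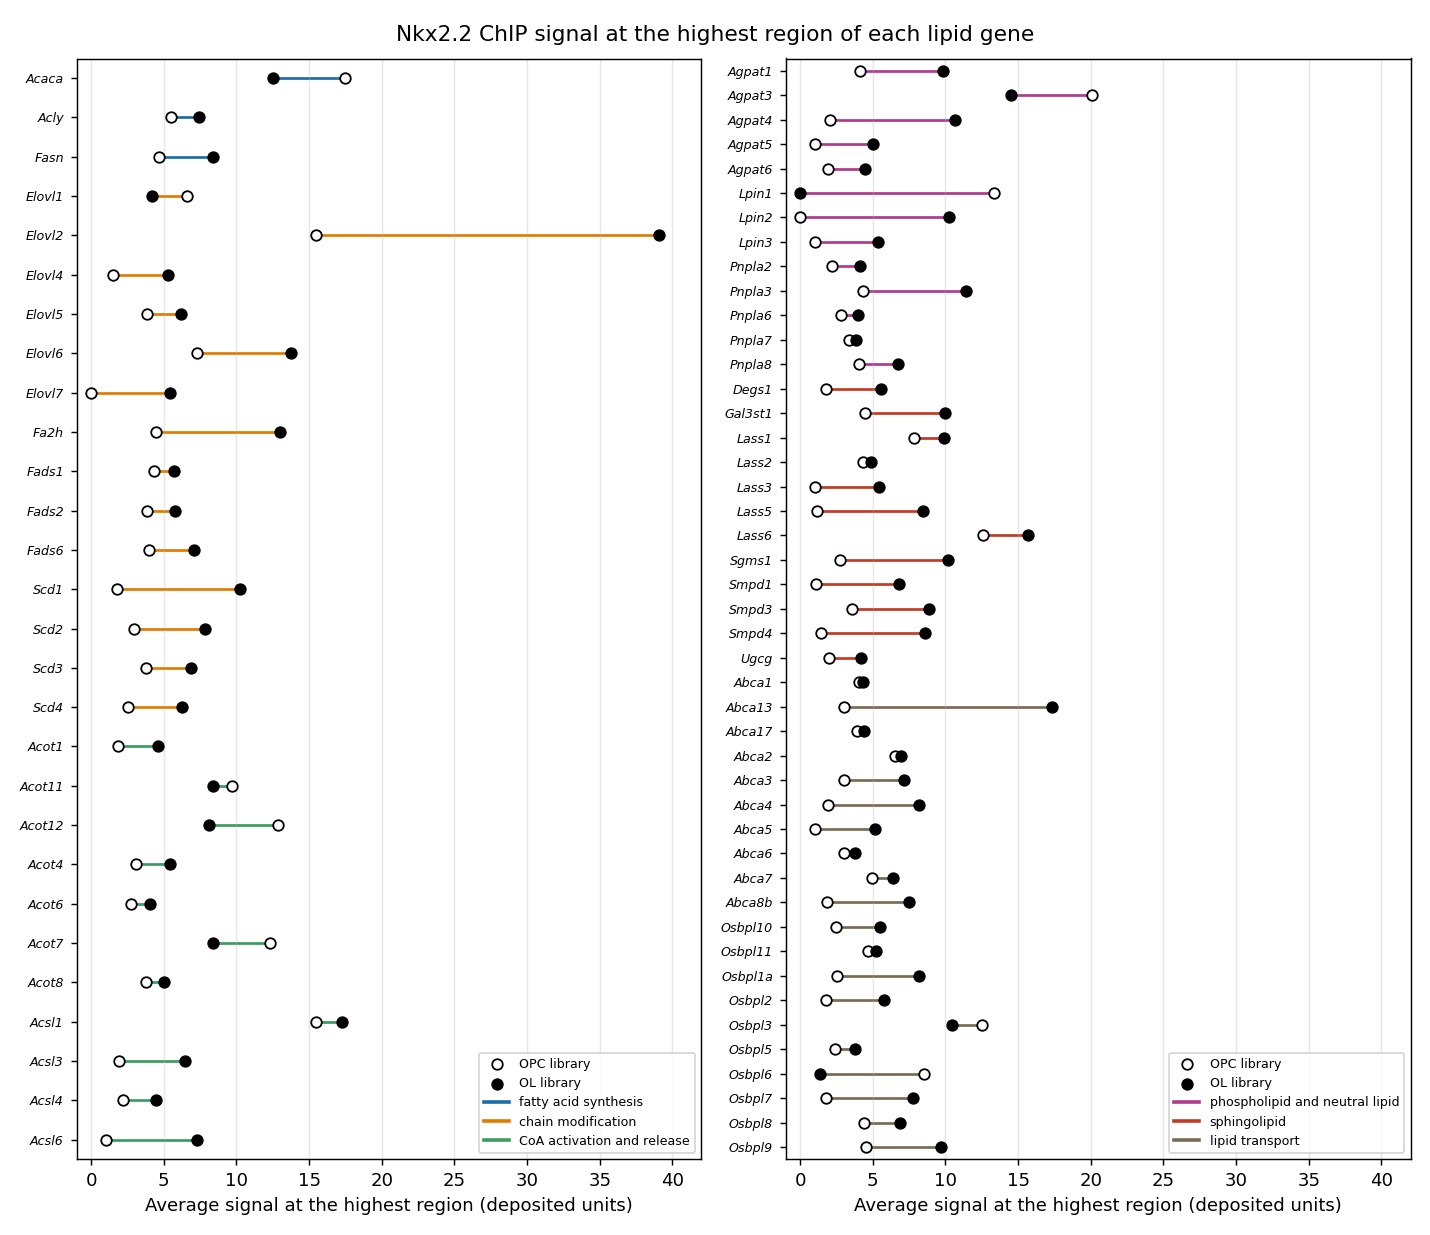
Average signal in OPC (open) and OL (filled) at the highest region of each of the 73 genes, with the line coloured by role. The filled point lies to the right for 64 genes, where 83.0% of all genes have more OL signal, and to the left for 9, among them Acaca, Agpat3, Lpin1 and Osbpl6. Elovl2 reaches 39.1.

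Genes of glycerolipid assembly held both the strongest OPC region and the log2 ratio farthest from 0. That ratio is of an Lpin1 region listed at 0 in OL, so it is set by the pseudocount. Agpat3, an acyltransferase that makes phosphatidic acid, had 20.1 in OPC and 14.5 in OL at chr10:77768588-77769391, inside the gene 45456 bp from its start, and 5.50 and 4.50 at its other region. Both were called in both libraries and both leaned to OPC. Agpat4, of the same family, was unlike it: its 9 regions all had more OL signal, with log2 ratios from 0.61 to 1.93, and 7 were called in OL only. Its highest lay downstream, with 2.05 and 10.7, and the promoter had 2.91 and 6.70 (chr17:12311575-12312314). Agpat1 had 4.14 and 9.85 at a region -5041 bp from the start that is also assigned to Pbx2, Ager, Rnf5 and Egfl8. Agpat5 and Agpat6 had weak regions, none above 5.0 in OL.

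Lpin1, a phosphatidate phosphatase at the branch between phospholipid and triglyceride synthesis, had regions in opposite directions. Downstream, at chr12:16539180-16539773, it had 13.3 in OPC and was listed at 0 in OL. Next to it a region had 4.88 and 3.42, and one inside the gene had 4.54 and 1.36, a log2 ratio of -1.23. All 3 of these were called in OPC only, whereas the 3 nearer the start were called in OL only. Those had 2.78 and 6.88 at 11681 bp, 2.39 and 5.29 at 969 bp and 2.00 and 4.58 at 53 bp. Its paralogue Lpin2 had a single region, chr17:71577005-71577590, with 10.2 in OL and a value listed at 0 in OPC, and Lpin3 had 1.00 and 5.36 inside the gene.

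The patatin-like lipases, Pnpla genes, had 10 regions, with 1 OPC call at the Pnpla3 start (4.23 and 6.13). All had an OL call and more OL signal, as 87.0% and 79.6% of regions with a gene had. Pnpla3 also had 4.32 and 11.4 downstream, at a region assigned to Samm50 too. Pnpla8, a mitochondrial phospholipase, had 4.06 and 6.74 at its start, and 489 bp inside it a separate region had 5.59 in OL with OPC listed at 0. Pnpla2, the triglyceride lipase of lipid droplets, had 2.18 and 4.15, Pnpla6 2.79 and 3.95, and Pnpla7 3.36 and 3.85, all weak.

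The genes of sphingolipids had more OL signal at the highest region of all 12 members, which is near the table as a whole, where 83.0% of genes had. Ceramide synthases came with many regions in large genes. Lass6 had 10, the highest with 12.6 in OPC against 15.7 in OL (chr2:68924614-68925607), 3.69 and 14.4 at another, and 8.89 and 6.76 at a further one that leaned to OPC. At its start Lass6 had 3.29 and 5.0. Lass5 had 6 regions, all called in OL and none in OPC, where 62.3% of regions with a gene were called in OL only. Lass5 had 1.18 and 8.42 at 1967 bp and 1.00 and 4.27 at the start. Lass2, the ceramide synthase of very long chains that myelin needs, had weak and even values, 4.33 and 4.88 upstream, where the OPC library alone had a call, and 3.36 and 4.60 at the start. Lass1, of neurons, had 7.83 and 9.87 at a region also assigned to Cope, and Lass3 1.00 and 5.42.

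Enzymes that make or convert ceramide and its products followed the same direction at their highest regions. Gal3st1, which makes sulfatide, had 3 regions, all called in OL only, with 4.44 in OPC and 9.94 in OL upstream at -9287 bp, 2.125 and 6.07 at its start (chr11:3883042-3883943), and a value listed at 0 and 5.0 inside the gene. All 3 are also assigned to its neighbour Pes1. Sgms1, sphingomyelin synthase, had 2.75 and 10.15 in the gene, and upstream 1.00 and 5.63 and a value listed at 0 and 3.75. A further region of Sgms1, chr19:32305229-32305562, went the other way, with 4.90 in OPC and a value listed at 0 in OL. Ugcg, glucosylceramide synthase, had 1 weak region, 2.00 and 4.20, and Degs1, which desaturates dihydroceramide, 1.75 and 5.59.

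The sphingomyelinases, which return sphingomyelin to ceramide, had calls in OL at all of their 9 regions, where 87.0% of regions with a gene had one. Smpd3, the neutral sphingomyelinase of brain, had the highest member value at a promoter, 8.48 in OL and 5.85 in OPC at chr8:108861645-108862660, called in both. Inside the gene it had 3.57 and 8.90. Smpd1, the lysosomal enzyme, had 1.08 and 6.79 at its start, a log2 ratio of 1.91, where the region is shared with Apbb1. Smpd4 had 1.43 and 8.57 at 17670 bp and 4.09 and 5.21 at its start.

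Oxysterol-binding protein relatives, which move lipids between membranes at contact sites, had regions at all 10 RefSeq genes of the family. Over all families of the rule 73 of the 97 RefSeq genes had one, and the share over all RefSeq genes was not computed. Osbpl3 was strongest at chr6:50307762-50308466, with 12.5 in OPC against 10.5 in OL, and another region with 8.75 in OL where OPC was listed at 0. Osbpl6 had 8.50 and 1.36 at 98059 bp, a log2 ratio of -2.01 and an OPC call only, yet 1.25 and 3.62 at 103514 bp. Osbpl8 had 8 regions with log2 ratios from -0.67 to 1.58, of which 2 were called in OPC only. In contrast Osbpl9 had more OL signal at all of its 3, up to 4.55 and 9.68, as had Osbpl10 and Osbpl1a. Osbpl2 had 1.81 and 5.76 at its start and Osbpl7 3.11 and 5.94, while Osbpl5 and Osbpl11 had no region above 5.20 in OL.

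Of the ATP-binding cassette lipid transporters, Abca13 had the highest OL value, 17.3 with 3.00 in OPC, at chr11:9145513-9146041 inside the gene, a log2 ratio of 2.196. Next to it Abca13 had a region with 6.67 in OL and OPC listed at 0, and far into the gene one called in OPC only, with 5.83 and 3.75. Abca2, a transporter enriched in oligodendrocytes, had its only region on its start, chr2:25283880-25284458, with 6.50 in OPC and 6.94 in OL, the highest OPC value of any member promoter. That region is also assigned to Fut7. Abca6 had 3.00 and 3.75 at its start. Abca1, which exports cholesterol to lipoproteins, had 3.85 and 3.57 at its start and a call in OL alone. Abca3, Abca4, Abca5, Abca7 and Abca8b had OL values of 7.18, 8.16, 5.18, 6.40 and 7.50 at their highest regions against 3.00, 1.92, 1.00, 4.93 and 1.85 in OPC. One region, between Abca3 and Abca17, counts for both genes, at 3.92 and 4.43.

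Regions at starts had a lower median log2 ratio than regions inside genes. Of the 218 regions, 39 (17.9%, 13.0 to 23.6%) lay within 1 kb of the start of a lipid gene, belonging to 36 members (48.9% of all genes had such a region), 127 lay farther inside a lipid gene, 19 upstream and 33 downstream. Within 1 kb of any gene's start lay 53 (24.3%), against 25.1% of regions with a gene. The 39 had a median log2 ratio of 0.49 and the 127 one of 1.00. Over the whole table promoter regions of any gene had a median of 0.60 and gene regions away from starts 0.83. The members lay in the same order as the table, and no test of the difference was made.

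Lipid promoters had a lower share of OPC calls than all promoter regions, though their median OPC signal was close, 3.17 against 3.50. In OL the medians were 5.26 and 5.31. Of the 39, 8 were called in OPC (20.5%, 9.30 to 36.5%) and 38 in OL (97.4%), against 40.6% and 92.9% of the 6614 promoter regions. The 8 are those of Abca2, Abca3, Acly, Fads2, Pnpla3, Scd1, Scd2 and Smpd3. A ratio of 1 or more was present at 9, against 19.8%, and one of -1 or less at 0 of 39, against 1.54%. CpG islands were assigned to 26 of 39 (66.7%), against 83.3%, and with and without one the median log2 ratios were 0.48 and 0.76.

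**Figure D4:**
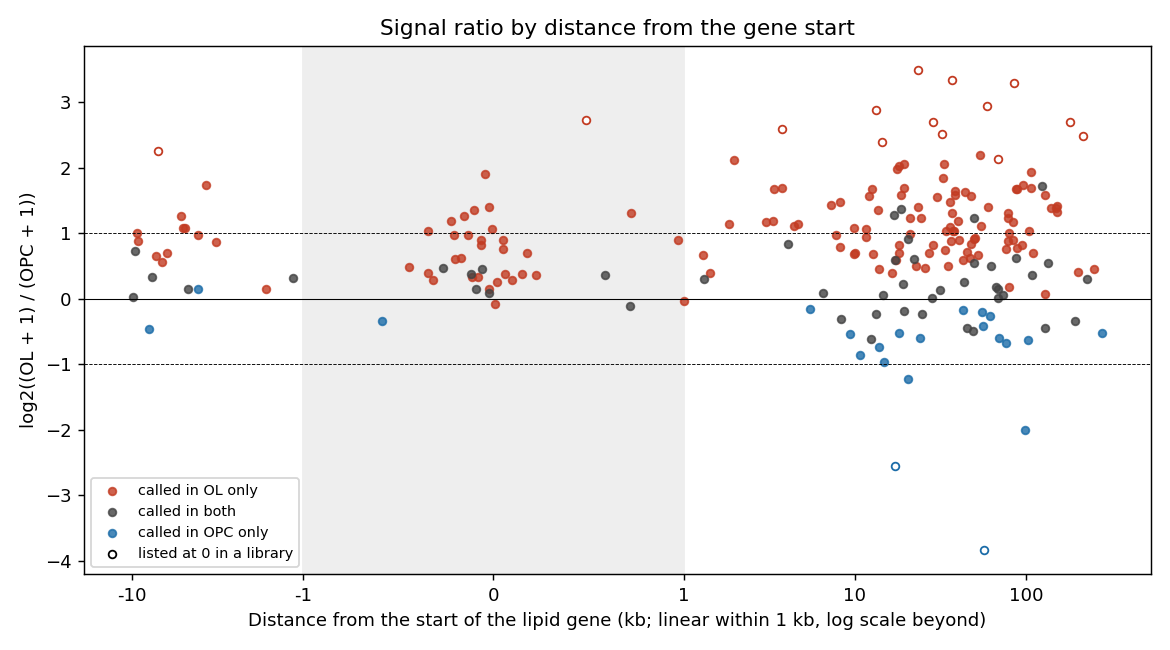
Log2 ratio of each region against its distance from the start of its lipid gene, coloured by the library in which it was called. The grey band is within 1 kb of the start. Hollow points are listed at 0 in a library, so that their height is set by the pseudocount. Promoter regions with signal in both libraries run from -0.34 to 1.91, and the 4 regions at -1 or less, 2 of them hollow, all lie beyond 10 kb.

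Few members had regions past the fold in both directions. Of the 55 members with 2 or more regions, 3 had both a region at 1 or more and one at -1 or less, namely Lpin1, Osbpl6 and Sgms1, the last through a region listed at 0 in OL, against 10.0% of the 8018 genes with 2 or more regions. Among the 20 members with 4 or more regions, all log2 ratios were above 0 at Agpat4, Lass5, Acsl1, Acsl3, Smpd3, Smpd4, Abca3 and Fasn. The other 12 had ratios on both sides of 0, which 66.8% of all genes with 4 or more regions had. Over regions with signal in both libraries, the means of these 20 ran from -0.06 at Osbpl6 to 1.65 at Sgms1, where 2 of 4 regions remained. The mean of Lpin1 was 0.24 in this way, and -0.44 with its region listed at 0.

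**Figure D5:**
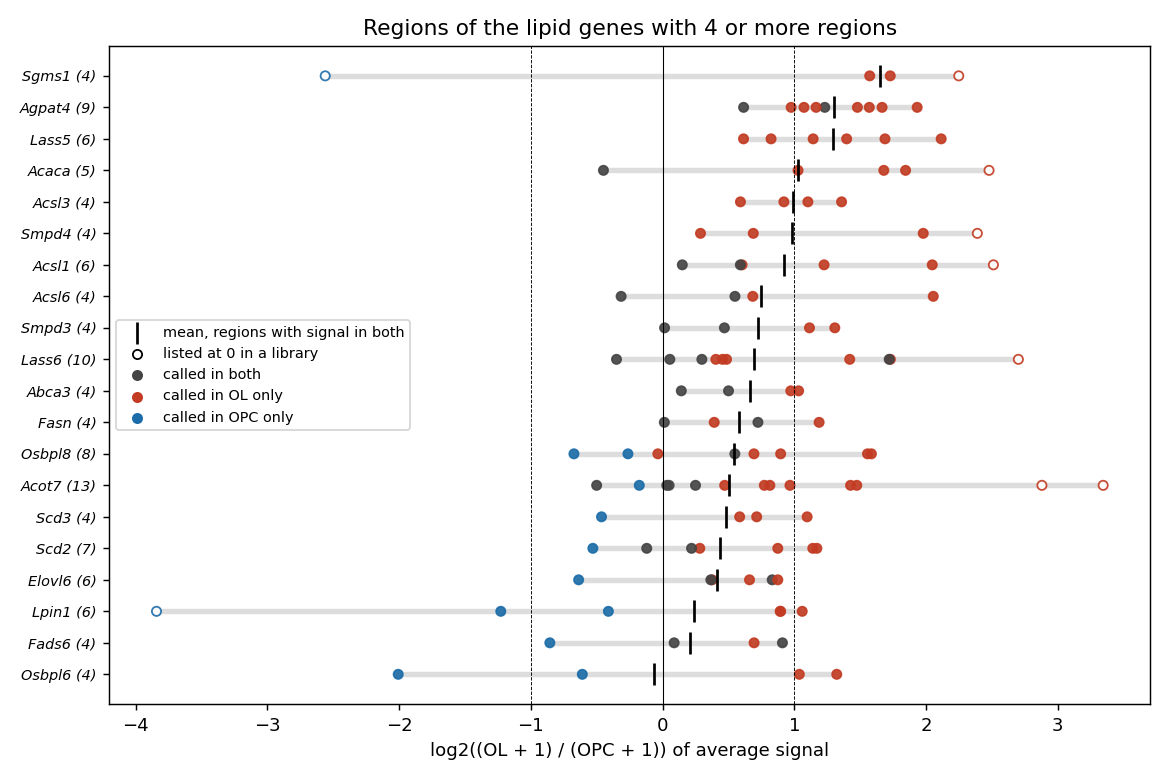
Log2 ratio of every region of the 20 genes with 4 or more regions (number in parentheses), ordered by the mean over regions with signal in both libraries, which is the black tick. Hollow points are listed at 0 in a library and their place is set by the pseudocount. Colours give the library of the call. Of the 20, only Osbpl6 has a mean below 0, at -0.06.

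Other genes of lipid metabolism outside the naming rule were counted in the same way. They were listed by 77 symbols, with both an older and a newer symbol for some genes. Regions were assigned to 55 of these symbols. Of the 55, 53 (96.4%) had an OL call and 31 (56.4%) an OPC call, against 94.8% and 57.3% of all genes. The median log2 ratio at the highest region was 0.78, with 22 at 1 or more, against 34.7% of all genes, and 2 at -1 or less, against 4.19%. Ugt8a, which makes galactosylceramide, the precursor on which Gal3st1 acts, had 8 regions, 6 with more OL signal and 2 called in OPC only. The highest, downstream of the gene, had 3.38 in OPC against 9.55 in OL. At its start Ugt8a had 4.67 and 2.75, called in OPC only. Sptlc2, a subunit of the enzyme that starts sphingolipid synthesis, had 8.19 and 15.0 at its start. Srebf1, the activator of Fasn and Scd genes, had 10.9 and 5.67 at the strongest of its 4 regions. The 2 members of this list at -1 or less were Sgpl1, with 7.40 and 1.33, and Pcyt1b, with 6.14 and 2.50.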

How the data were processed

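The deposited table lists regions that the authors built by joining the intervals called in the OPC and OL libraries, per the file headers. For each library it gives the average and highest signal, deposited by the authors in units whose scaling is not given in the sources used here, and a mark for a call. The submitters' processing notes name BWA, MACS 1.4.2 and mm9. How the input was used, and at which threshold calls were made, is not given in the sources used here. Coordinates are printed as deposited. Distances to a gene start run from the middle of the region.

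From these values the log2 ratio with a pseudocount of 1 was computed, with no filter, and regions past 1 or -1 were counted (Python 3.11.15, pandas 2.3.3). A gene is represented by its region with the highest average signal in either library. Named are the single genes of the rule, the highest gene of each family, the 10 highest regions in each library, the 10 largest and 10 smallest ratios among regions above the table's median mean signal, genes with a start region above the median of such regions and genes with 4 or more regions, along with other members to account for families. Shares carry exact Clopper-Pearson 95% intervals. Counting was checked on simulated signals. The members, the role groups and the list of other lipid genes were chosen with earlier results of these data known. Gene names and promoters come from RefSeq GRCm38.p6.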

Additional observations from a re-analysis of the deposited data

How the results depend on the processing

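With 1 library per state, no replicate could be left out. No paired analysis was possible because each group has 1 library and the results come from no test. The count of lipid regions at a log2 ratio of 1 or more (85) became 46 with a pseudocount of 3 and 23 with ratios centred on all regions, and the count at -1 or less (4) became 23 with that centring, 7 with the highest signal in place of the average, and 2 with regions under a signal of 5 in both libraries left out, and also 2 without regions listed at 0, an alternative chosen after seeing the data. The median log2 ratio of lipid regions (0.82) was 0.91 and 0.56 with pseudocounts of 0.5 and 3, 0.57 and 0.080 with ratios centred on shared and on all regions, 1.14 with the highest signal and 0.99 with the filter at 5. Over genes (0.79) it was 0.057 with centring on all regions and 1.17 with the highest signal, and for the other lipid genes (0.78) 0.55 with a pseudocount of 3, 0.54 and 0.046 with both centrings and 1.13 with the highest signal; these alternatives for the other lipid genes were chosen after seeing the data. With calls kept only at a signal of 5 or more, 32 lipid regions kept an OPC call and 127 an OL call, and 22 genes had an OPC call. Promoter regions (39) numbered 25 among regions assigned to a lipid gene alone and 78 by the deposited promoter feature, which also counts other genes' promoters. Except by the construction of each setting, the cause was not tested. None of the 33 genes past 1 or -1 at their highest region changed sign under the 6 settings run per gene. Genes between these values could change sign. Acaca went from -0.45 to 1.32 with the mean over its regions. Abca2 went from 0.083 to -0.65 when centred on all regions. With that centring 22 of the 33 genes no longer passed 1 or -1, while 5 with more OPC signal (Acaca, Acot12, Acot7, Agpat3 and Elovl1) passed -1.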
